A study of Mus musculus with 6 samples.

Results

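The blood clotting system and the system that dissolves clots are made mostly in the liver, and 35 mouse genes of these systems are described here in hepatocytes that had lost the transcription factor FOXA2. The genes were chosen by name, with earlier results of these data known, and found by their Ensembl identifiers. Of the 34745 genes in the deposited tables, 34 were members of the list, and 33 of these passed the filter on low counts, among 14417 genes tested in all. Klkb1, which encodes plasma prekallikrein, had no row under its identifier ENSMUSG00000109764. Vkorc1, the enzyme that recycles vitamin K, had between 2 and 9 reads per library and was not tested. Exons of Gm21974 on the same strand cover 47.7% of the exonic bases of Vkorc1. Of its stretches of 50 bases, 50.5% are also in Gm21974, which held 0 reads. Whether reads of Vkorc1 went uncounted for this overlap was not tested, so the low count may not show its level.

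Clotting proceeds as a cascade in which each inactive protease in plasma is cut and activated by the one before it, until thrombin, the active form of the product of F2, converts fibrinogen into fibrin. Several of these proteases carry glutamate residues that hepatocytes modify in a vitamin K-dependent reaction before secretion. Anticoagulant proteins such as antithrombin and protein C restrain the cascade, and plasmin, cut from plasminogen, dissolves the clot. Most of the plasma proteins are secreted by hepatocytes, whereas factor VIII and von Willebrand factor come largely from endothelial cells and the factor XIII A subunit from macrophages and platelets.

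Both groups were male FOXA2flox/flox mice of 12 weeks that received CCl4, a liver toxin that causes fibrosis. The dose was 0.25 ml/kg, given over 4 weeks with 2 injections in each week, and the cells were taken 3 days after the last dose. The FOXA2H-KO group had received the virus AAV8-TBG-Cre 2 weeks before the first dose, and the control group, FOXA2f/f, had received AAV8-TBG-Control at the same time. The TBG promoter drives Cre in hepatocytes, so that only cells that took up the virus and use this promoter lose the gene. RNA of primary hepatocytes, freed from the liver with collagenase, was sequenced in 3 libraries per group, which the labels number 1, 2 and 4. All mice carried the CCl4 injury, and the labels of these samples hold no untreated group. The question of the comparison is what the loss of FOXA2 changes in hepatocytes of the fibrotic liver.

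Values below are given for replicates 1, 2 and 4 in that order. They are CPM, the read count per gene relative to the scaled size of its library, unless FPKM is named. FPKM is the level per length assigned to the gene in the deposited values. Foxa2 itself stood at 19.0, 13.5 and 16.4 CPM in the FOXA2f/f libraries and at 1.03, 0.76 and 1.62 CPM in the FOXA2H-KO libraries, so that the labels of all 6 libraries fitted the deletion. The log2 fold change was -3.85 ± 0.31 (SE, n = 3 per group, edgeR adjusted p = 0.0313). The call was lost without FOXA2f/f replicate 1 or 4 and without any single FOXA2H-KO library, at log2 fold changes of -4.17 to -3.63 and edgeR adjusted p between 0.0624 and 0.499. Totals were between 20983455 and 28327765 counts. The labels do not say that each library came from its own mouse, and p-values measure the spread between these libraries. The 8 hepatocyte markers, among them Alb, summed to between 103425 and 151455 CPM. Markers of other cells were present at lower levels, and they were uneven among the FOXA2f/f libraries: 8 markers of sinusoidal endothelial cells summed to 436, 237 and 847 CPM against 493 to 535 CPM in FOXA2H-KO, and 8 markers of Kupffer cells and macrophages to 986, 440 and 2057 CPM against 958 to 1450 CPM. Of 7 neutrophil markers tested, all 7 were lower in FOXA2H-KO, 6 of them at an unadjusted p under 0.05, and the whole list summed to 6.69 to 107 CPM in FOXA2f/f and 7.58 to 15.4 CPM in FOXA2H-KO. Of 5 cholangiocyte markers tested all 5 were higher, 2 of them at that level, with sums of 174 to 367 and 252 to 708 CPM. The part of these cells in the results was not tested.

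No member changed past the threshold between FOXA2H-KO and FOXA2f/f hepatocytes, and fitted levels lay below those of FOXA2f/f more often than above. Of the 33 tested members, 25 had a lower and 8 a higher fitted level in FOXA2H-KO, with a median log2 fold change of -0.37, beside -0.01 over all genes tested. The quasi-likelihood test of edgeR called 0 members at an adjusted p under 0.05 and a fold of at least 2, beside 1 of 14417 genes (0.00694%), which was Foxa2. DESeq2, limma and the exact test of edgeR also called 0 members with the fold threshold, and DESeq2 without it called 1, F11, beside 0.594% of the genes it tested. At an unadjusted p under 0.05 there were 4 members, F7, F10, F11 and Plg, all lower, where 3.18% of all genes were lower and 1.98% higher at that level. A level of RNA per library does not tell fewer cells of a type from less RNA per cell.

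In 13 members every FOXA2H-KO library lay below every FOXA2f/f library, which 5.96% of all genes did, and in 0 members every FOXA2H-KO library lay above, where 4.54% of all genes did. These 13 were F2, F7, F10, F11, F12, Kng1, Serpinc1, Serpina10, Proc, Pros1, Proz, Plg and Serpinf2. For each of them the exact two-sided permutation test of the mean CPM gave p = 0.1, the smallest that 3 against 3 libraries allow. The count depends on how the libraries are scaled. On the deposited FPKM, which are divided by the total count alone, 8 members stayed apart with FOXA2H-KO lower (F7, F10, F11, Kng1, Proc, Proz, Plg and Serpinf2), and F2r stood apart with FOXA2H-KO higher. Of the 10278 genes at a mean of at least 1 FPKM, 3.25% stood apart lower and 9.16% higher on that scale. The counts also depend on single libraries. Without FOXA2f/f replicate 4, 22 members did not overlap, 20 of them lower and 2 higher, but with 2 libraries against 3 the shares over all genes were 18.4% lower and 18% higher. In that setting 12 members had an unadjusted p under 0.05, 10 lower and 2 higher, where 7.78% of all genes were lower and 8.87% higher. This number was 2 without FOXA2H-KO replicate 1 and 1 without FOXA2H-KO replicate 4, where 2.4% and 1.63% of all genes were lower at that level.

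**Figure D1:**
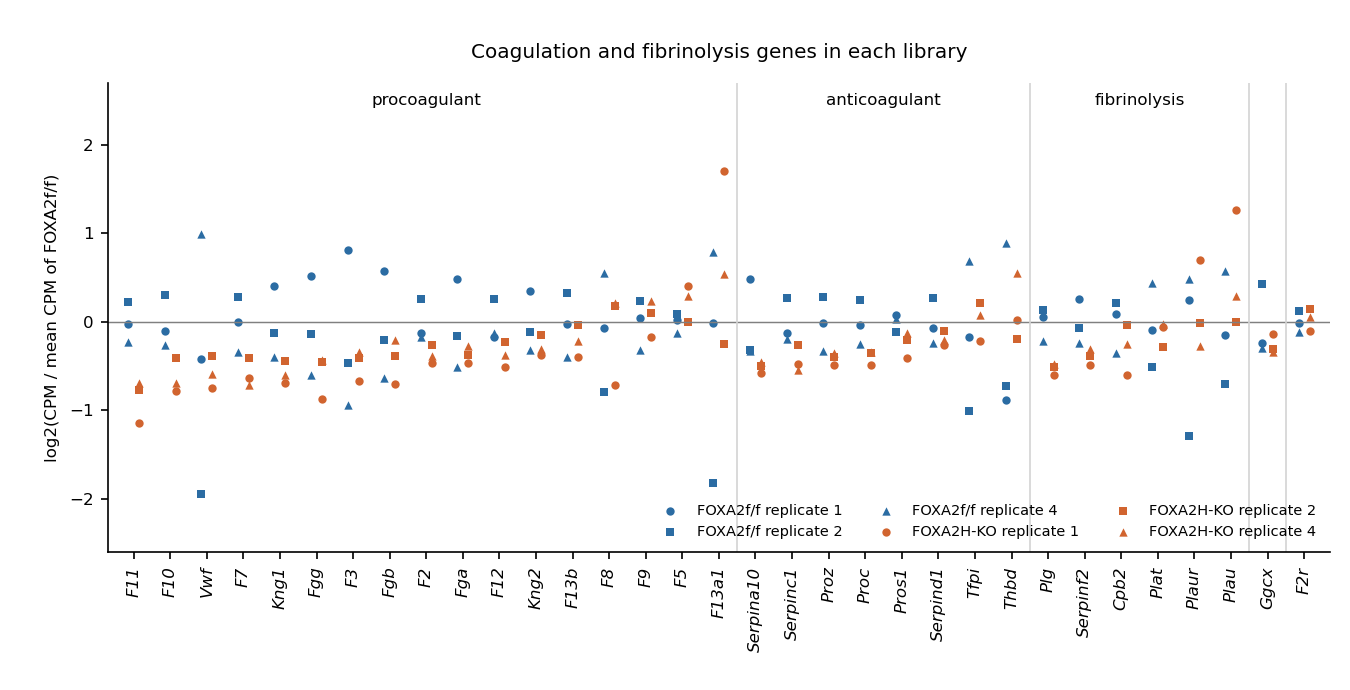
Level of the 33 tested members in each of the 6 libraries, as log2 of CPM over the mean CPM of the 3 FOXA2f/f libraries (vertical axis, 0 is that mean), genes grouped by role. Blue points are FOXA2f/f and orange points FOXA2H-KO, with a shape for each replicate number; in 13 members the orange points all lie under the blue ones, and Vwf and F13a1 show the widest spread among the blue points.

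The procoagulant, anticoagulant and fibrinolytic genes each had a median under 0, with members on both sides. Over all genes tested 52.2% were lower, and 5.96% were lower without overlap. Of 17 procoagulant members tested, 14 were lower in FOXA2H-KO, with a median log2 fold change of -0.37 and 6 without overlap. Of 8 anticoagulant members, 6 were lower, with a median of -0.32 and 5 without overlap. Of 6 fibrinolysis members, 4 were lower, with a median of -0.20 and 2 without overlap. The 4 activator and receptor genes among these, 2 of them lower, had a median of 0.03. Differences between these medians were not tested. The counts without overlap are those of scaled CPM. On FPKM, F2 and F12 of the procoagulant members overlapped, as did Serpinc1, Serpina10 and Pros1 of the anticoagulant members. Plg and Serpinf2 of the fibrinolysis members stayed apart. Without FOXA2f/f replicate 1 the procoagulant median was -0.20 and the anticoagulant median -0.19, and without FOXA2f/f replicate 4 the fibrinolysis median was -0.13.

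The members were also divided by level, at a threshold chosen after the values were seen. The 24 members with a mean of 10 FPKM or more held 21 of the 25 lower genes and all 13 without overlap, with a median log2 fold change of -0.38, or -0.23 without FOXA2f/f replicate 1 and -0.28 without FOXA2f/f replicate 2. Of all 2762 genes tested at that level, 203 stood apart with FOXA2H-KO lower and 120 with FOXA2H-KO higher. These 2762 genes had a median of -0.07, with 64.0% of them lower, as against 87.5% of these members. The hepatocyte markers, 7 of 8 lower with a median of -0.12, showed the same share. The 9 tested members under 10 FPKM, 4 lower and 5 higher, had a median of 0.03, which was 0.51 without FOXA2f/f replicate 4. Without FOXA2f/f replicate 2 it was -0.29, so that the medians at both levels then coincided. The difference between the levels was not tested. The threshold of 10 FPKM falls between Ggcx, at a mean of 11.4 FPKM, and Thbd, at 5.40 FPKM.

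**Figure D2:**
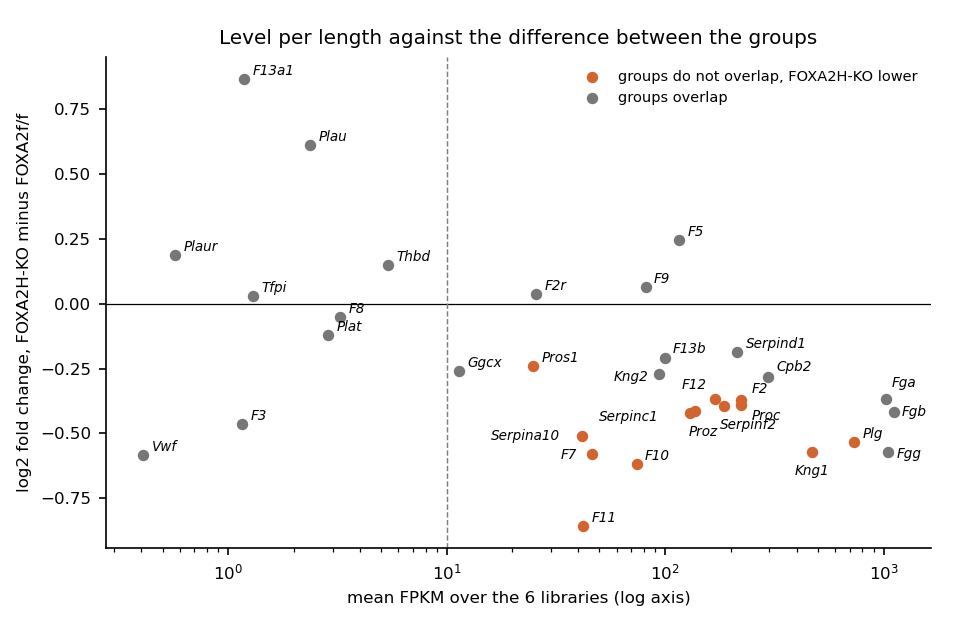
Mean FPKM over the 6 libraries (horizontal log axis) against the log2 fold change of FOXA2H-KO minus FOXA2f/f (vertical axis) for the 33 tested members, with orange points for the 13 whose groups do not overlap. The dashed line marks 10 FPKM: to its right 21 of 24 members lie under 0, with F5, F9 and F2r above, and to its left 4 of 9 do.

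Among the 4 members with an unadjusted p under 0.05, F7, F10 and F11 lie on chromosome 8 and have a start site in the RefSeq table used here. F7 (GRCm38 chr8:13026034-13035809, plus strand), F10 (chr8:13037308-13056676, plus strand) and Proz follow one another, with 1498 bases between F7 and F10 and 4237 between F10 and Proz. F11 lies apart from them at chr8:45241174-45262031 on the minus strand, 4657 bases from Klkb1. The 250 bases before each start (RefSeq, GRCm38.p6) are printed for these 4 genes because they hold the member with the most negative fold change and 3 neighbours whose groups did not overlap. The windows are chr8:45262032-45262281 (minus strand) for F11, chr8:13025784-13026033 for F7, chr8:13037058-13037307 for F10 and chr8:13060658-13060907 for Proz, all 3 on the plus strand. Capitals mark letters of a FOXA-type motif, searched on both strands in 4 spellings. The first was TGTTTAC, the next was TGTTTGC with another sixth letter, and the remaining spellings, TATTTAC followed by TATTTGC, differ from these in the second letter.
F11: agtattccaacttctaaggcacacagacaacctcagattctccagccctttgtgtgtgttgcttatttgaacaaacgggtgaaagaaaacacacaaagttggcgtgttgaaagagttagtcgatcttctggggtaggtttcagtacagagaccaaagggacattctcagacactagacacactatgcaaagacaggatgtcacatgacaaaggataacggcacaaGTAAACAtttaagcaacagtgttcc
F7: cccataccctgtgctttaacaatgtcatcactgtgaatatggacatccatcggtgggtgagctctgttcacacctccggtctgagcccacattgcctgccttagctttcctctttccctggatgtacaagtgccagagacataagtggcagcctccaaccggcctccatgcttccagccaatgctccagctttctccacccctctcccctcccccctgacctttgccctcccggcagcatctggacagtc
F10: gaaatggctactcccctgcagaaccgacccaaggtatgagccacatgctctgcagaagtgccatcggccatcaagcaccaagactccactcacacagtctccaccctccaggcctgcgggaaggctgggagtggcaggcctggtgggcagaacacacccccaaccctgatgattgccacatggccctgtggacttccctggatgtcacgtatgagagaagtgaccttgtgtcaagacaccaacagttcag
Proz: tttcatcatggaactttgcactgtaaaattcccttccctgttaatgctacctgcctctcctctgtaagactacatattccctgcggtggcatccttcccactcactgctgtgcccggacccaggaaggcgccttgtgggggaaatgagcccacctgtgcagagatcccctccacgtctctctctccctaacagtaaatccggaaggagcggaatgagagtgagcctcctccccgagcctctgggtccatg

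The F11 window holds TGTTTAC on the minus strand relative to the gene, 25 bases before the start, and the windows of F7, F10 and Proz hold none of the 4 words. Among the 27 members with a promoter in the table, 9 held a match (33.3%): F8, F11, Fgb, Kng2, Klkb1, Serpind1, Plaur, Serpinf2 and Vkorc1. Among all 32851 promoters of that source, the share was 11.9%. The members were counted by gene and all promoters by entry. F13a1 and Tfpi had 2 entries each, without a match. Members with and without a match had similar medians. The 7 tested members with one had a median log2 fold change of -0.27, with 6 lower, and the 18 without one a median of -0.32, with 13 lower. The half-site GTTAAT of the hepatocyte factor HNF1 was found in 4 members (14.8%), F13b, Fga, Fgb and Proz, and in 6.43% of all promoters. A match of letters is a description of the sequence and not a site of binding. The table holds no entry for Kng1, Vwf, Serpina10, Proc, Thbd, Plg, Plat and Plau.

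The vitamin K-dependent proteins were lower in 6 of 7 genes, with a median log2 fold change of -0.39 and 6 without overlap in CPM. On FPKM, F2 and Pros1 of these 6 overlapped. Over all genes tested 52.2% were lower and 5.96% lower without overlap. F7 encodes factor VII, the protease that starts the cascade with tissue factor, and the study followed this gene among those of liver function. By real-time PCR the paper reported lower F7 mRNA in hepatocytes of FOXA2H-KO than of FOXA2f/f mice after CCl4. In the counts F7 was measured at 104, 127 and 82.8 CPM in FOXA2f/f and at 67.5, 78.9 and 63.7 CPM in FOXA2H-KO. The highest FOXA2H-KO library lay just under the lowest FOXA2f/f library, and the mean was 33.2% lower, with a log2 fold change of -0.58 ± 0.18 (SE, unadjusted p = 0.0133, edgeR adjusted p = 0.791).

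F10, its neighbour on the chromosome, encodes factor X, which forms the enzyme that cuts prothrombin. It stood at 466, 615 and 417 CPM in FOXA2f/f and at 289, 377 and 310 CPM in FOXA2H-KO, with no overlap and a mean 34.8% lower. The log2 fold change was -0.62 ± 0.20 (SE, unadjusted p = 0.0169, edgeR adjusted p = 0.815). Proz, next in the row, encodes protein Z, which helps its inhibitor to block factor Xa. Proz had 376, 461 and 302 CPM in FOXA2f/f against 271, 288 and 297 CPM in FOXA2H-KO, with the groups apart by a narrow margin and a log2 fold change of -0.41 ± 0.19 (SE). The ratio of F7 to F10 FPKM was 0.619 ± 0.0387 (SD, n = 3) in FOXA2f/f and 0.637 ± 0.0443 in FOXA2H-KO (exact permutation p = 0.6).

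F2, the gene of prothrombin, was the most abundant vitamin K-dependent gene, at a mean of 223 FPKM, with Proc at 222 FPKM. F2 had 1288, 1675 and 1240 CPM in FOXA2f/f against 1012, 1169 and 1071 CPM in FOXA2H-KO, a log2 fold change of -0.37 ± 0.20 (SE). In CPM, replicate 2 stood out as the highest FOXA2f/f library, and without it the log2 fold change of F2 was -0.22. On FPKM, F2 had 212, 264 and 250 in FOXA2f/f against 206, 216 and 193 in FOXA2H-KO, with overlap. Proc, which encodes the anticoagulant protein C, had 390, 472 and 336 CPM against 285, 313 and 315 CPM, a log2 fold change of -0.39 ± 0.17 (SE). Pros1 encodes protein S, the cofactor of protein C. Its 130, 114 and 126 CPM in FOXA2f/f against 92.8, 107 and 113 CPM in FOXA2H-KO left the groups less than 1 CPM apart, with a log2 fold change of -0.24 ± 0.13 (SE).

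F9, which encodes factor IX, the protease missing in haemophilia B, was the exception in this family. It had between 175 and 257 CPM in FOXA2f/f and between 194 and 258 CPM in FOXA2H-KO, a log2 fold change of 0.06 ± 0.19 (SE). Ggcx, the carboxylase that modifies all of these proteins, had between 50.9 and 84.1 CPM against 49.4 to 56.9 CPM, with overlapping groups and a log2 fold change of -0.26 ± 0.21 (SE). Serpina10, the inhibitor that works with protein Z, had 277, 159 and 157 CPM in FOXA2f/f and 133, 140 and 144 CPM in FOXA2H-KO. Its groups did not overlap, but its log2 fold change of -0.51 ± 0.23 (SE) was -0.17 without FOXA2f/f replicate 1.

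The 4 contact factors and kininogens tested were all lower, with a median log2 fold change of -0.47. F11 encodes factor XI, which activates factor IX and is itself activated by factor XII or by thrombin. F11 stood at 122, 145 and 106 CPM in FOXA2f/f and at 56.1, 72.9 and 76.7 CPM in FOXA2H-KO. Every FOXA2H-KO library lay well below every FOXA2f/f library, and the mean was 44.7% lower. The log2 fold change of -0.86 ± 0.18 (SE, unadjusted p = 0.00149, edgeR adjusted p = 0.579) was the most negative of all 33 members, and it lay between -0.96 and -0.72 over the alternative settings. The DESeq2 adjusted p of F11 was 0.0161, that of the exact test of edgeR 0.0525, and the range over all alternatives was 0.0161 to 1. By its fitted fold F11 stayed short of the 2-fold threshold.

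F12, the gene of factor XII, which starts the contact pathway on charged surfaces, had 379, 512 and 393 CPM in FOXA2f/f against 301, 365 and 329 CPM in FOXA2H-KO, a log2 fold change of -0.37 ± 0.18 (SE). Relative to F12, F11 was lower in every FOXA2H-KO library. The ratio of F11 to F12 FPKM was 0.319, 0.282 and 0.268 in FOXA2f/f and 0.185, 0.199 and 0.232 in FOXA2H-KO, without overlap between the groups. The exact two-sided permutation p was 0.1, the smallest possible, in a family of 7 such ratios, so that no adjusted value could pass 0.05.

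Kng1 and Kng2 encode kininogens, the carriers of bradykinin and cofactors of contact activation, and lie 28382 bases apart on chromosome 16. Kng1 had 3860, 2665 and 2216 CPM in FOXA2f/f against 1812, 2141 and 1924 CPM in FOXA2H-KO, without overlap. The log2 fold change of Kng1 was -0.57 ± 0.26 (SE), and -0.30 without FOXA2f/f replicate 1, its highest library. Kng2 had between 348 and 551 CPM against 335 to 391 CPM, with overlap, and a log2 fold change of -0.27 ± 0.20 (SE). The ratio of Kng2 to Kng1 FPKM was 0.184 ± 0.0086 (SD, n = 3) in FOXA2f/f and 0.224 ± 0.0016 in FOXA2H-KO, without overlap (exact permutation p = 0.1). Of the stretches of 50 bases in the Kng1 transcript, 18.0% are also in Kng2, so that reads could be divided between the pair in a way the counts do not show.

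The 3 fibrinogen chains were the most abundant members per length, at means of 1113 (Fgb), 1049 (Fgg) and 1021 (Fga) FPKM. Their genes lie side by side on chromosome 3, with 11026 bases between Fgg and Fga and 6513 between Fga and Fgb. Together they took 1.69, 0.994 and 0.962% of all counts in FOXA2f/f and 0.928, 0.999 and 1.05% in FOXA2H-KO. In these unscaled shares the single FOXA2f/f replicate 1 stood above the other 5 libraries, which differed little. In scaled CPM the chains summed to 18594, 11438 and 8663 in FOXA2f/f and to 8267, 9814 and 10582 in FOXA2H-KO. There FOXA2f/f replicate 1 was again highest, but the other 5 libraries differed more.

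Fga had 6886, 4387 and 3460 CPM in FOXA2f/f against 3561, 3800 and 4049 CPM in FOXA2H-KO. Fgb had 7342, 4282 and 3185 CPM against 3033, 3784 and 4277 CPM. Fgg had 4367, 2769 and 2018 CPM against 1674, 2231 and 2256 CPM. In each chain FOXA2f/f replicate 1 was highest, FOXA2f/f replicate 4 was within or near the range of FOXA2H-KO, and the groups overlapped. The log2 fold changes were -0.37 ± 0.30 for Fga, -0.42 ± 0.35 for Fgb and -0.57 ± 0.32 for Fgg (SE, edgeR adjusted p between 0.960 and 0.983). Without FOXA2f/f replicate 1 they were -0.03, 0.0021 and -0.20. The ratio of Fgb to Fga FPKM lay between 0.941 and 1.18 in all 6 libraries and overlapped between the groups.

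**Figure D3:**
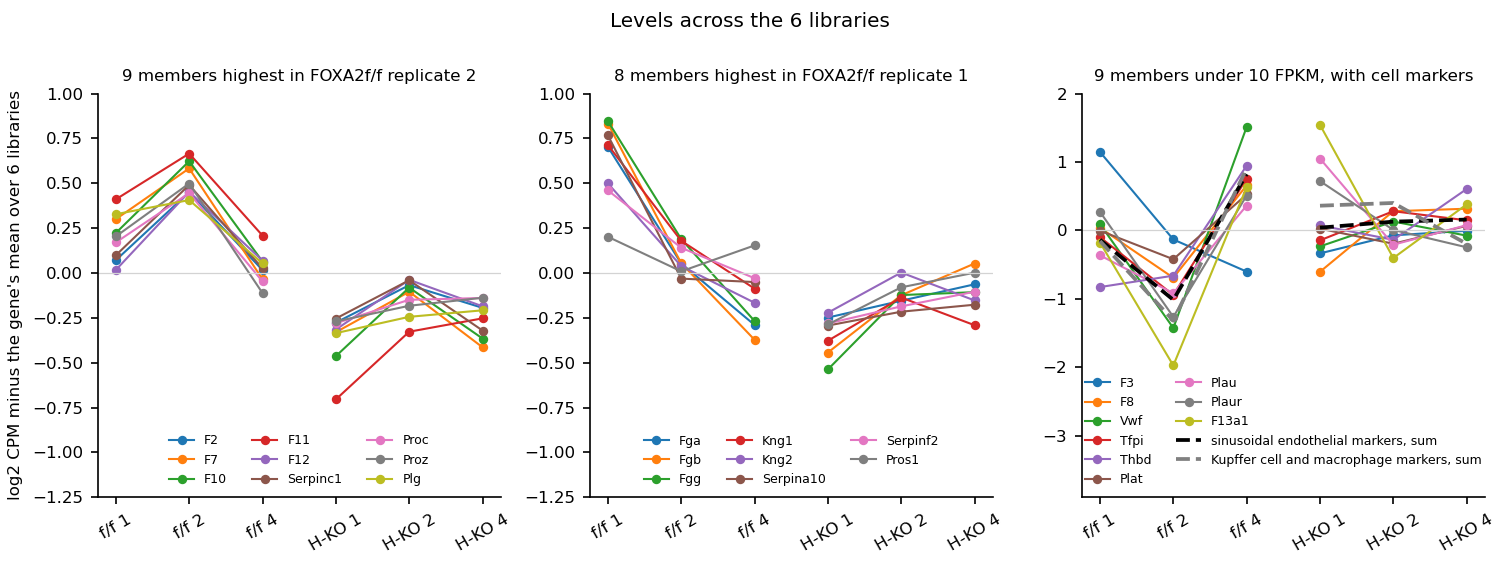
Log2 CPM minus the mean of the gene over the 6 libraries (vertical axis) for FOXA2f/f and FOXA2H-KO replicates 1, 2 and 4 (horizontal axis, lines only join the points of a gene). Of the 16 members at 10 FPKM or more that were highest in replicate 2 among the FOXA2f/f libraries, the left panel shows the 9 without overlap between the groups. The rest of the 16, F5, F9, F13b, Serpind1, Cpb2, Ggcx and F2r, overlapped in CPM and are not drawn. Among these, F5, F9 and F2r had a higher fitted level in FOXA2H-KO. The middle panel shows the 8 members at 10 FPKM or more that were highest in replicate 1. The right panel shows the 9 tested members under 10 FPKM with the summed markers of endothelial cells and macrophages (dashed). Most lines of the right panel peak in FOXA2f/f replicate 4 and dip in replicate 2.

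In scaled CPM the control libraries differed among themselves in an orderly way. Of the 24 members at 10 FPKM or more, 16 were highest among the FOXA2f/f libraries in replicate 2, 8 in replicate 1 and 0 in replicate 4, and 22 were lowest in replicate 4. Members under 10 FPKM ran the other way, with 8 of 9 highest in replicate 4 and 7 lowest in replicate 2. The endothelial and macrophage marker sums were likewise highest in replicate 4 and lowest in replicate 2. The order of the abundant members depended on the scaling. The scaling factors (TMM) of FOXA2f/f replicates 1, 2 and 4 were 0.910, 0.870 and 1.11, and FPKM do not use them. On FPKM, F2 had 212, 264 and 250 and was lowest in replicate 1. F5 had 97.5, 97.6 and 108 FPKM and was highest in replicate 4. Fgb, at 1753, 977 and 929 FPKM, stayed lowest in replicate 4. In these few libraries the hepatocyte marker sum was 135429, 151455 and 109356 CPM in FOXA2f/f, in the same order as most of the abundant members. Most of that sum was Alb, at 113057, 124578 and 89394 CPM. Ttr, Cps1, Hnf4a and Ass1 had the same order in CPM. On FPKM, Alb and Ttr kept it. Cps1, at 854, 1257 and 931 FPKM, and Ass1, at 683, 941 and 816 FPKM, were lowest in replicate 1. Hnf4a, at 62.2, 64.8 and 69.1 FPKM, was highest in replicate 4. Apoa1 was highest in replicate 1, Tat was highest in replicate 4 and Cyp2e1 was lowest in replicate 2. Without FOXA2f/f replicate 2, the log2 fold changes of F12, Proc, Proz and Serpinc1 were -0.22, -0.25, -0.25 and -0.26. The part of cell composition in the group differences was not tested.

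The cofactors and cross-linking factors showed no common direction, with 2 of 4 lower. F5 encodes factor V, the cofactor of factor Xa, and was the abundant member with the highest fold change. It had between 720 and 834 CPM in FOXA2f/f and between 784 and 1038 CPM in FOXA2H-KO, with overlap and a log2 fold change of 0.24 ± 0.19 (SE). F13b, the hepatocyte-made carrier subunit of the fibrin-cross-linking factor XIII, had a log2 fold change of -0.21 ± 0.21 (SE). F13a1, its catalytic subunit, had between 0.88 and 5.34 CPM against 2.61 to 10.04 CPM and a log2 fold change of 0.86 ± 0.66 (SE), the highest and least precise of all members. F8, the gene of factor VIII, had between 20.8 and 53.2 CPM in FOXA2f/f against 22.1 to 41.9 CPM, a log2 fold change of -0.05 ± 0.36 (SE).

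The other procoagulant genes of low level were likewise uneven in the controls. F3 encodes tissue factor, the trigger of clotting outside the vessel, and had 2.42 to 8.12 CPM in FOXA2f/f and 2.91 to 3.65 CPM in FOXA2H-KO. Vwf, which encodes the platelet-binding von Willebrand factor of endothelial cells, had 2.41 to 18.5 CPM against 5.52 to 7.10 CPM. Both groups overlapped in each gene, and the FOXA2H-KO libraries lay inside the FOXA2f/f range. The log2 fold changes were -0.46 ± 0.44 for F3 and -0.58 ± 0.61 for Vwf (SE).

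**Figure D4:**
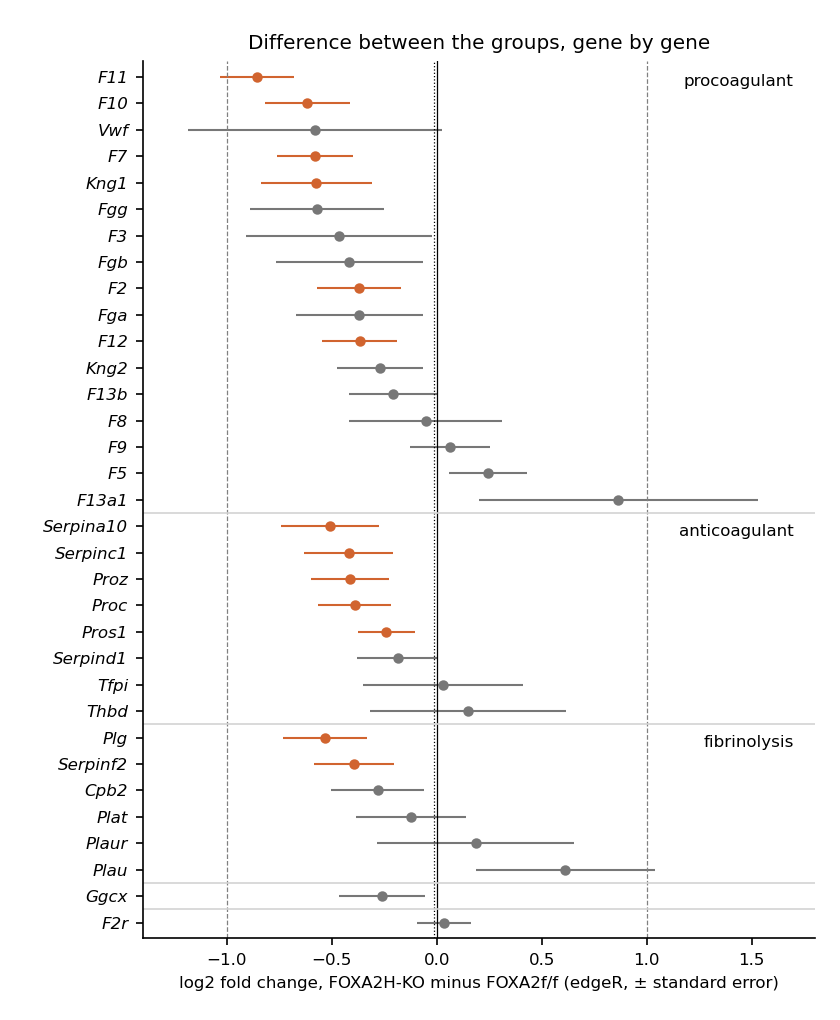
Log2 fold change of FOXA2H-KO minus FOXA2f/f with its standard error (horizontal axis and bars) for each tested member, ordered by role and then by fold change, orange where the groups do not overlap. Dashed lines mark the 2-fold threshold and the dotted line the median of all genes, -0.01; every point lies inside the 2-fold lines, from F11 at -0.86 to F13a1 at 0.86.

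Among the inhibitors of the proteases, the gene of antithrombin did not overlap between the groups in CPM and that of heparin cofactor II did. On FPKM both genes overlapped. Serpinc1 encodes antithrombin, the main inhibitor of thrombin and factor Xa. Its 1489, 1953 and 1415 CPM in FOXA2f/f stood against 1166, 1351 and 1113 CPM in FOXA2H-KO, without overlap, and the log2 fold change was -0.42 ± 0.21 (SE). The ratio of F2 to Serpinc1 FPKM was 1.69 ± 0.0179 (SD, n = 3) in FOXA2f/f and 1.75 ± 0.108 in FOXA2H-KO (exact permutation p = 0.5). Exons of Zbtb37 on the other strand cover 34.4% of the exonic bases of Serpinc1, but that gene held only 242 to 437 reads per library, beside 24067 to 44517 for Serpinc1.

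Serpind1 encodes heparin cofactor II, a further inhibitor of thrombin, and was among the abundant anticoagulant genes at a mean of 214 FPKM. It had 834, 1051 and 740 CPM in FOXA2f/f against 732, 815 and 762 CPM in FOXA2H-KO. The groups overlapped, and the log2 fold change of -0.19 ± 0.19 (SE) was -0.03 without FOXA2f/f replicate 2. Tfpi and Thbd, anticoagulants of the endothelial surface that inhibit tissue factor with factor VIIa and turn thrombin towards protein C, had 7.29 to 23.7 and 9.97 to 34.1 CPM in FOXA2f/f. Their FOXA2H-KO libraries lay inside these ranges, with log2 fold changes of 0.03 ± 0.38 and 0.15 ± 0.47 (SE).

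In fibrinolysis, the plasminogen gene was lower in every FOXA2H-KO library, and the genes of its activators overlapped between the groups. Plg (GRCm38 chr17:12378608-12419385, plus strand) encodes plasminogen, the precursor of plasmin. By FPKM it was the most abundant member after the fibrinogen chains, at a mean of 736, whereas by CPM Kng1 stood above it. Plg had 2521, 2663 and 2084 CPM in FOXA2f/f against 1592, 1696 and 1739 CPM in FOXA2H-KO. The groups lay clearly apart, the mean was 30.8% lower, and the log2 fold change was -0.53 ± 0.20 (SE, unadjusted p = 0.0308, edgeR adjusted p = 0.914). Over the alternatives it lay between -0.63 and -0.40.

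The activators were present at low levels. Plat, which encodes tissue plasminogen activator, had 5.21 to 10.04 CPM in FOXA2f/f and 6.10 to 7.31 CPM in FOXA2H-KO. Plau, which encodes urokinase, had 2.58 to 6.26 CPM against 4.21 to 10.1 CPM, and its receptor gene Plaur 1.10 to 3.75 CPM against 2.22 to 4.34 CPM. All 3 overlapped between the groups, with log2 fold changes of -0.12 ± 0.26, 0.61 ± 0.43 and 0.19 ± 0.47 (SE).

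Both inhibitors of fibrinolysis on the list were lower. Serpinf2 encodes alpha 2-antiplasmin, the plasma inhibitor of plasmin, and had 1000, 802 and 713 CPM in FOXA2f/f against 598, 639 and 676 CPM in FOXA2H-KO. The groups did not overlap, and the log2 fold change was -0.39 ± 0.19 (SE), or -0.23 without FOXA2f/f replicate 1. Cpb2 encodes the carboxypeptidase known as TAFI, which removes the plasminogen-binding residues from fibrin. Cpb2 had 512, 558 and 377 CPM against 317, 469 and 404 CPM, with overlap and a log2 fold change of -0.28 ± 0.22 (SE), or -0.14 without FOXA2H-KO replicate 1. F2r, the thrombin receptor PAR1, had 77.3 to 91.2 CPM in FOXA2f/f and 78.2 to 92.5 CPM in FOXA2H-KO, a log2 fold change of 0.04 ± 0.13 (SE).

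Summed over the class, the procoagulant genes reached 26716, 19053 and 14654 CPM in FOXA2f/f and 13628, 15757 and 16227 CPM in FOXA2H-KO. The groups overlapped on this scale, with FOXA2f/f replicate 4 below 2 FOXA2H-KO libraries, whereas the unscaled shares of counts, 1.63 to 2.43% against 1.53 to 1.61%, just missed each other. Fibrinolysis genes, led by Plg, took 0.281 to 0.287% of counts in FOXA2H-KO against 0.350 to 0.368% in FOXA2f/f, and 2529 to 2834 against 3194 to 4047 CPM. Anticoagulant genes took 0.276 to 0.310% against 0.320 to 0.368%, and 2711 to 3047 against 3133 to 4229 CPM. Neither of these classes overlapped on either scale.

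Of 22 other genes of haemostasis, chosen as the wider pathway, 20 were tested, 12 lower and 8 higher, with a median log2 fold change of -0.14 and 0 called. Apoh, which encodes beta 2-glycoprotein I, a phospholipid-binding plasma protein of hepatocytes, had 1406, 1650 and 1129 CPM in FOXA2f/f against 891, 1007 and 979 CPM in FOXA2H-KO, a log2 fold change of -0.54 ± 0.21 (SE, unadjusted p = 0.0315, edgeR adjusted p = 0.915). Serpine2, which encodes the thrombin inhibitor protease nexin 1, went the other way. It had 7.56, 12.7 and 16.9 CPM against 21.7, 18.3 and 33.4 CPM, a log2 fold change of 0.98 ± 0.33 (SE, unadjusted p = 0.0191, edgeR adjusted p = 0.836). Habp2, the gene of a plasma protease that can activate factor VII, was lower without overlap, at a log2 fold change of -0.23 ± 0.13 (SE). A2m, the gene of a broad protease inhibitor, was higher without overlap but held only 3 to 5 reads per library in FOXA2f/f and 12 to 17 in FOXA2H-KO.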

How the data were processed

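Poly(A) RNA of primary hepatocytes was sequenced as paired-end TruSeq libraries, 3 per group. The submitters' processing notes name CASAVA 1.8, TopHat2 2.1.0, HTSeq, edgeR and the build mm10, without their roles; the annotation is not given in the sources used here. For each library the authors deposited whole-number read counts per Ensembl gene, not normalized, and FPKM values. The FPKM follow from the counts, the total count and 1 length per gene. That length was near the longest coding transcript of GENCODE M21 for Plg (2755 against 2757 bases) but not for Kng1 (5124 against 2255). Ranks of genes by FPKM depend on it. A table of the whole series that repeats these values was not used. Replicates of a group were all distinct (chi-square of their counts over its degrees of freedom from 38.8 to 134).

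The test of the counts was the quasi-likelihood test of edgeR 4.0.16 under R 4.3.3 (libraries scaled by TMM, low genes removed by filterByExpr, Benjamini-Hochberg adjustment over 14417 genes). A gene was called at an adjusted p under 0.05 and a fold of at least 2, the thresholds of the study. The paper reports more genes at these thresholds than any setting here called, and the reason was not tested. The standard error is the size of the log2 fold change over the square root of F. CPM use the TMM-scaled library sizes. Scripts were tested on simulated data. DESeq2 1.42.0, limma 3.58.1 on log2(FPKM + 1), other scalings, filters and leaving out each library were alternatives; the counts by direction, the split at 10 FPKM and DESeq2 without the fold threshold were added after seeing the data.

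The members, roles and lists were chosen with earlier results of these data known. Values in every library are given for F7, members at an unadjusted p under 0.05 or without overlap, and the 3 members of each class with the highest FPKM; of the wider pathway, genes at that p or without overlap are named. Positions are from GENCODE M21 on GRCm38 and promoters from RefSeq on GRCm38.p6. The pairing of replicate numbers was checked by the correlation of deviations from the group means. The precision is limited by 3 libraries per group.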

Additional observations from a re-analysis of the deposited data

How the results depend on the processing

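With 3 libraries per group, edgeR estimated a biological coefficient of variation of 25.3%, and no member was called in any setting with the fold threshold; DESeq2 without it called 1 member. Members at an unadjusted p under 0.05 numbered 4 as reported, 10 with DESeq2 and 1 to 12 when 1 library was left out. The shares over all genes were 2.52% lower and 1.52% higher with DESeq2. With 1 library left out they were 1.63 to 7.78% lower and 1.15 to 8.87% higher. Members without overlap numbered 13 as reported and 12 to 22 when 1 library was left out. In those smaller sets 8.3 to 18.4% of all genes stood apart lower and 7.36 to 18% higher, beside 5.96% and 4.54% with all 6 libraries. Those lower were 8 with library size alone or FPKM, beside 3.24% and 3.25% of the genes compared. Without FOXA2f/f replicate 4 they were 20, beside 18.4%. Library size alone moved the median of all genes from -0.01 to 0.10 and that of the members at 10 FPKM or more from -0.38 to -0.25. Between 22 and 27 members were lower in every setting.

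The procoagulant median was -0.20 with limma on FPKM and -0.45 to -0.20 without 1 library. The anticoagulant median was -0.20 with library size alone, -0.19 with limma on FPKM and -0.40 to -0.19 without 1 library, and the fibrinolysis median was -0.10 with library size alone. Fgb lay between -0.65 and 0.0021 without 1 library, reversed without FOXA2f/f replicate 1; the cause was not tested. Foxa2 kept its direction, at -3.74 with library size alone, -1.95 with limma on log2(FPKM + 1), whose pseudocount shrinks low genes, and -4.17 to -3.63 without 1 library, but passed the threshold in none of these except without FOXA2f/f replicate 2. Genes called in all numbered 1 as reported, 75 with DESeq2, 89 with the exact test of edgeR, 2 with no filter and 6 without FOXA2f/f replicate 2. The check of replicate numbers showed no pairing: the same-number correlations were -0.10, 0.07 and -0.25, beside -0.21 to 0.29 for unlike numbers. With 3 libraries per group it cannot show that the samples were unpaired. With a replicate block, Foxa2 had a log2 fold change of -3.88 and 0 genes were called. In that fit 3 members had an unadjusted p under 0.05, all lower, where 2.75% of all genes were lower and 1.98% higher.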
